A study of Mus musculus with 6 samples.

Results

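The 9 genes described here carry out urea synthesis and hepatic glutamine and glutamate metabolism: Nags, Cps1, Otc, Ass1, Asl and Arg1 of the urea cycle, and Gls2, Glul and Glud1 of glutamine handling. Peaks were taken as theirs when the gene column of a deposited peak table named one of them. This gave 29 of the 20040 peaks of the control list and 21 of the 12495 peaks of the Bcl6LKO list. Of the 9 genes, 8 had a peak in both lists, and Glud1 had none in either.

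FXR ChIP-seq was performed on livers of male C57BL/6 mice of 2 genotypes. Control mice, labelled Bcl6 fl/fl and written WT here, carried floxed Bcl6 alleles without Cre. Bcl6LKO mice are labelled Alb-cre, Bcl6 fl/fl and written LKO here. They carried the same floxed alleles with Cre driven by the albumin promoter, which is active in hepatocytes. Whether Bcl6 was also deleted in other liver cells was not measured. Each genotype had 2 ChIP libraries and 1 input library of unprecipitated chromatin. The ages of these mice were not given in the sources used here, and no source states that the replicate libraries came from separate animals. FXR ChIP does not measure BCL6, so the deletion itself could not be checked here. The comparison asks whether FXR occupies the same sites when hepatocytes lack BCL6, a transcriptional repressor.

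The urea cycle converts ammonia to urea and runs chiefly in periportal hepatocytes. Its first steps are mitochondrial, where CPS1 forms carbamoyl phosphate and OTC joins it to ornithine, and its last steps are cytosolic. Glutaminase 2 and glutamate dehydrogenase supply ammonia to the cycle, and glutamine synthetase captures residual ammonia in the hepatocytes around the central vein. FXR is a nuclear receptor for bile acids, and its best known DNA element is IR1, the hexamer AGGTCA followed, after a spacer of 1 base, by its inverse TGACCT.

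WT replicate 2 held 2883717 tags, against 19022618 to 22637613 in the other 3 ChIP libraries, and the inputs held 6935001 and 6964271. From these totals, the WT member peaks were estimated at 4.1 to 118 tags in WT replicate 2, with a median of 15.5, and at 16.4 to 439 tags in WT replicate 1. Among the ChIP libraries, counting error was therefore largest in WT replicate 2. The inputs were sparser still, with a median of 0.56 estimated tags per peak in WT and 0.40 in LKO. Member peaks with input above percentile 90 of their list were estimated at 2.23 to 2.61 input tags. Input percentiles given below therefore rest on few tags. All 5 hepatocyte marker genes examined (Alb, Apoa1, Apoa2, Ttr and Serpina1a) had peaks in both lists. Of 5 markers of other liver cells (Ptprc, Cd68, Pecam1, Lrat and Krt19), only Pecam1 had any, with 2 peaks found in the WT list alone.

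Sequences are shown for the regions on which the results turn, on the plus strand of mm10 (assembly GRCm38.p6). The first 5 are whole WT peaks: the strongest peak of the set, which lies upstream of Ass1, the strongest peaks of Gls2 and Glul, the Cps1 peak with the largest shortfall in LKO liver, and the Ass1 promoter peak found in WT liver only. Capitals mark each exact hexamer, AGGTCA or its inverse TGACCT.
Ass1 -5.4 kb, chr2:31464718-31464928: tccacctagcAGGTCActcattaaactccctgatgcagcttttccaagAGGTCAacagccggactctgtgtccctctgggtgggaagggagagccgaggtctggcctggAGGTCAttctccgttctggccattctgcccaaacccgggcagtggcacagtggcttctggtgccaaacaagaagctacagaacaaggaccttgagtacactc
Gls2 +7.3 kb, chr10:128201860-128202070: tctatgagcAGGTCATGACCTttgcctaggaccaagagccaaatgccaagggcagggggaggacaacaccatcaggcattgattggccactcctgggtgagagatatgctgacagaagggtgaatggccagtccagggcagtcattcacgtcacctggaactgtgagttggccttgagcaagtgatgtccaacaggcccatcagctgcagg
Glul +88.8 kb, chr1:153988577-153988787: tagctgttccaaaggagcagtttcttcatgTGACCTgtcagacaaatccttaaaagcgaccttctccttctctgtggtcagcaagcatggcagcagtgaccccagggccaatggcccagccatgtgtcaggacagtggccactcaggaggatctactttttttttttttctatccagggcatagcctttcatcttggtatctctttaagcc
Cps1 -6.2 kb, chr1:67116698-67116908: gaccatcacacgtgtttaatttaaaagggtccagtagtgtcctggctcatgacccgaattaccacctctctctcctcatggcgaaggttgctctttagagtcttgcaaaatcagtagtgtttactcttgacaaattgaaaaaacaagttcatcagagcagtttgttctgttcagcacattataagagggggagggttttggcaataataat
Ass1 -0.2 kb, chr2:31469923-31470133: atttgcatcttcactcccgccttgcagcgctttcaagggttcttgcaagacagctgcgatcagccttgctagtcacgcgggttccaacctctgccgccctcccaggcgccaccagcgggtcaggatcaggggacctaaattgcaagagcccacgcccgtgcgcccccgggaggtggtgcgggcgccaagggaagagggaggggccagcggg
An exact hexamer was present in 10 of 29 WT member peaks (34.5%, against 41.0% of all WT peaks). In LKO it was present in 7 of 21 member peaks (33.3%, against 41.6%). The Ass1 -5.4 kb peak held 3 exact hexamers, a number reached or passed by 1.29% of all WT peaks. That cut was taken from the peak itself. In the Gls2 +7.3 kb peak, a hexamer was followed directly by its inverse with no spacer, an arrangement present in 5 of 20040 WT peaks and 4 of 12495 LKO peaks. The arrangement without a spacer was looked for after the Gls2 sequence had been seen. The Cps1 -6.2 kb and Ass1 -0.2 kb peaks held no exact hexamer.

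The next sequences are the IR1-like sites. Each was the closest IR1 match within 100 bp of a peak centre, with at most 2 mismatches in the 12 scored bases on either strand, and the 13 bases of the site are in capitals between 6 flanking bases on each side. The last lies in an intron of Glud1, in a peak that the deposited tables assign to another gene.
Nags -3.0 kb, chr11:102142509-102142533: ggccccAGGTCCATGAGCTtggtgt
Otc +7.4 kb, chrX:10259771-10259795: agtggcAGGACACTGACCCcaagcc
Asl +1.8 kb, chr5:130022497-130022521: actaagAGGTCAAGGACCCtggtgt
Glud1 intron 5, chr14:34333940-34333964: cagctaAGGTCAGTGACCTgtccca
The Nags, Otc and Asl sites each had 2 mismatches. They were found in peaks of both lists, giving 3 of 29 WT member peaks (10.3%) and 3 of 21 LKO member peaks (14.3%), against 11.8% and 16.2% of all peaks. None of the member peaks had IR1 with fewer than 2 mismatches, which with 3 counts as the limit allows a share of up to 10.3% in WT and 14.3% in LKO. Among all peaks the shares with at most 1 mismatch were 2.46% and 3.55%. None of the 9 WT-only member peaks had a site, which allows a share of up to 33.3%. Intervals and limits of shares cover counting error over peaks only. Matches are descriptions of the letters and say nothing of which factor was bound.

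The deposited lists were called on the pooled libraries of a genotype, so a peak's presence has no replicate spread. Peaks that overlapped by at least 1 bp were called shared. Of the WT member peaks, 20 of 29 overlapped an LKO peak (69.0%, 95% Wilson interval 50.8 to 82.7%), against 49.5% of all WT peaks. Of the LKO member peaks, 20 of 21 overlapped a WT peak (95.2%, 77.3 to 99.2%), against 79.4% of all LKO peaks. Overlap depended on strength, taken as the mean log2 value of the ChIP libraries. When each member was given the share of its strength decile in the same list, the mean was 63.3% for WT and 83.5% for LKO, both inside the members' intervals. Member peaks were at or above the median strength of their list in 20 of 29 cases in WT and in 14 of 21 in LKO. The shares of the members therefore lay near those of peaks of like strength.

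Peak counts differed among the genes. Cps1 had 6 WT and 5 LKO peaks, Arg1 6 and 3, Glul 5 and 4, Nags 4 and 3, Ass1 4 and 2, Otc 2 and 1, Asl 1 and 1, and Gls2 1 and 2. The median gene with a peak had 1 in either list, and 6.33% of the 9025 genes with a WT peak had 6 or more. Gls2 was the member with more peaks in LKO than in WT. By the deposited annotation most member peaks were intergenic, 62.1% in WT and 57.1% in LKO, against 35.3% and 34.3% of all peaks. By RefSeq, several of these lie inside another gene. Among them are Arg1 peaks in Gm36228, Ass1 peaks in Hmcn2, Nags peaks in Gm11586 and Glul peaks in LOC108167736.

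**Figure D1:**
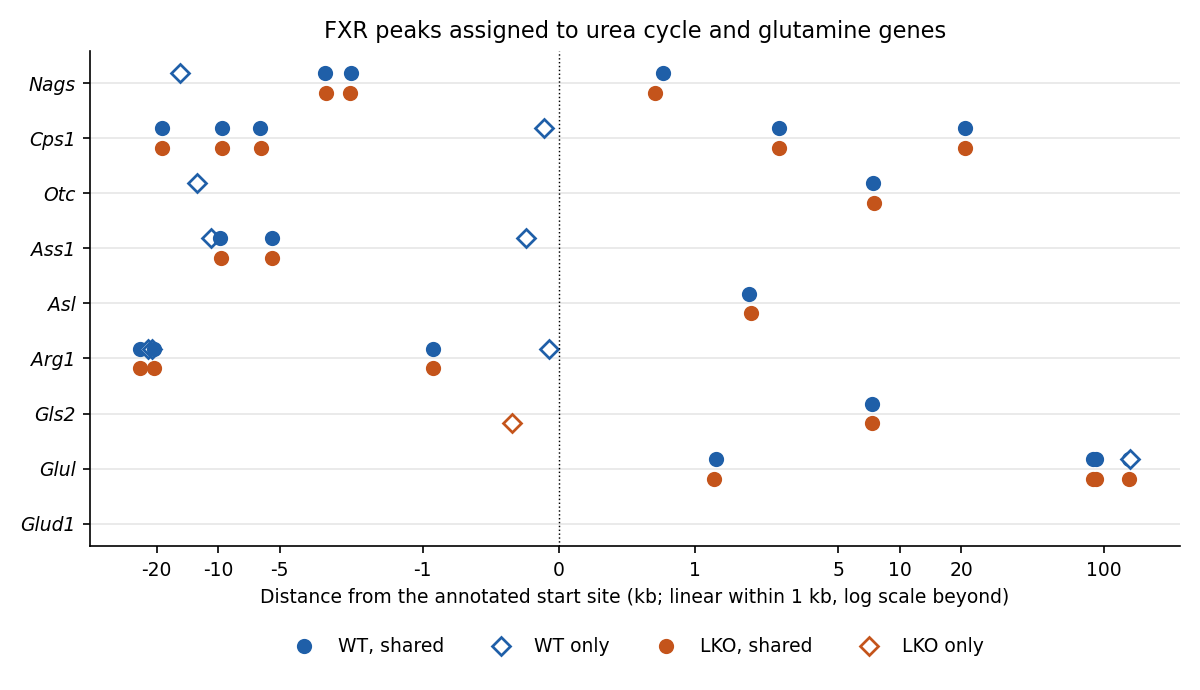
Position of each member peak relative to the start site of its assigned gene, in kb (linear within 1 kb, log scale beyond). Filled circles are shared peaks, open diamonds are peaks of 1 list, WT is drawn above LKO, and the open diamonds include the WT peaks at the start sites of Cps1, Ass1 and Arg1 and the LKO peak at that of Gls2. Glud1 has no assigned peak.

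In the map of peak positions, most promoter peaks belonged to 1 list. Of 4 WT member peaks annotated as promoter, 1 was shared, that of Arg1 at -0.9 kb. The WT-only promoter peaks lay 110 bp upstream of the start site of Cps1, 242 bp upstream of that of Ass1 and 70 bp upstream of that of Arg1. The start site used for Cps1 lies 601 bp inside the RefSeq gene, so that the Cps1 peak fell within the gene by that annotation. Of all WT promoter peaks, 50.6% were shared, and the 4 member peaks would be shared at 29.1% by their strength deciles. With 4 peaks the interval of the observed share runs from 4.56 to 69.9%, which covers both values.

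The peaks present in 1 list were mostly weak. The 9 WT-only peaks had strength percentiles of 17.1 to 75.6 within the WT list, with a median of 36.3, whereas the 20 shared WT peaks ran from 7.01 to 99.5 with a median of 76.9. The same contrast held over the whole WT list, with medians of 29.8 for all WT-only peaks and 72.2 for all shared peaks. The single LKO-only peak, 348 bp upstream of an annotated start site of Gls2, stood at percentile 3.79 of its list. In the plot of strength percentiles, the strongest peak of every gene was a shared one.

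**Figure D2:**
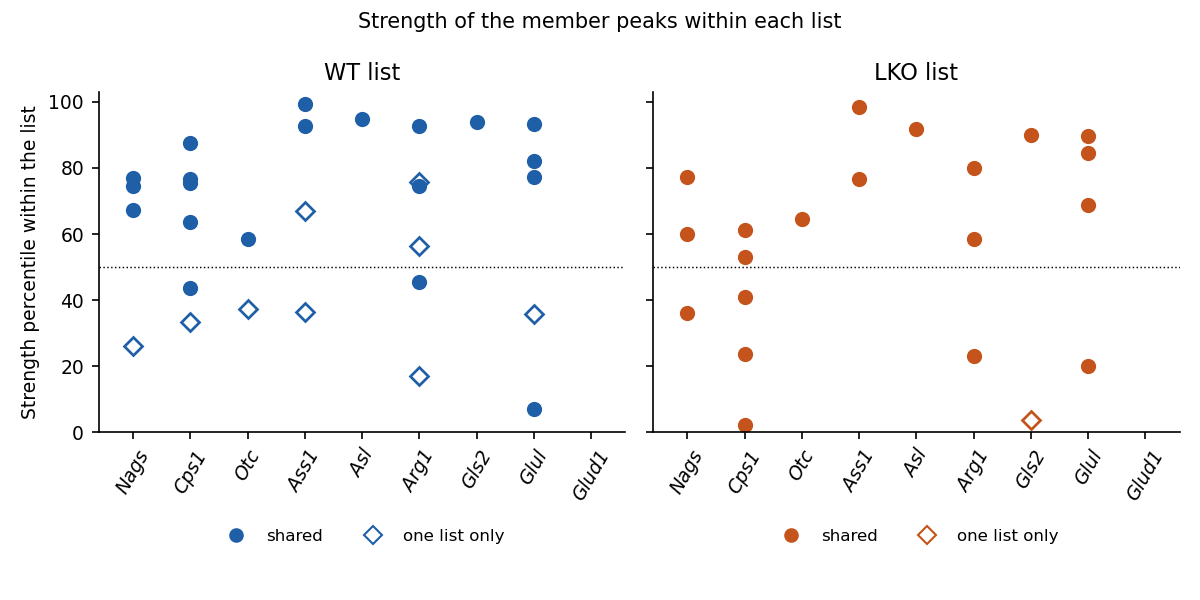
Strength percentile of each member peak within its own list (WT left, LKO right), by gene, with 100 as the strongest. Filled circles are shared peaks and open diamonds are peaks of 1 list, and the dotted line marks the median peak. The WT-only peaks lie between percentiles 17.1 and 75.6, and the LKO-only Gls2 peak is at 3.79.

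The 3 strongest peaks found in 1 list were all from WT liver. The Arg1 -21.1 kb peak had log2 values of 4.71 and 6.08 in WT replicates 1 and 2 (5.40 ± 0.97, SD, n = 2), the Ass1 -10.8 kb peak 4.42 and 5.71 (5.07 ± 0.92), and the Arg1 -22.1 kb peak 4.59 and 4.94 (4.76 ± 0.25). Both Arg1 peaks lie within the noncoding gene Gm36228, between Arg1 peaks that were shared, and the Arg1 -21.1 kb peak ended 306 bp from the nearest LKO peak. Input at the Arg1 -21.1 kb, Ass1 -10.8 kb and Arg1 -22.1 kb peaks was at percentiles 81.5, 90.5 and 78.3 of the WT list. These were an estimated 1.53, 2.50 and 1.51 tags. The LKO table gives no value at the places of these peaks, so their level in LKO liver was not measured here.

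At the shared peaks the lists could be compared by level. The tables were normalised separately by the authors. Each log2 value was therefore centred on the library's own median over the 9918 shared pairs, and a level of 0 is that of the median shared peak. Genotypes were not tested against each other, because an exact permutation of 2 against 2 libraries cannot give a two-sided p below 0.333. A difference is given with the pooled SD of the replicates. Over the 20 member pairs the median LKO minus WT difference was -0.073 (range -0.92 to 1.03), against 0.026 over all 9918 pairs. Both LKO libraries lay below both WT libraries in 4 of 20 pairs, against 25.2% of all pairs, and above both in 4 of 20, against 29.8%. In the other 12 pairs the libraries of the genotypes overlapped. These counts lay near the background and do not set the genes apart as a group.

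The size of this comparison depended on the scale. Without centring, the deposited values gave a median of -0.40 over the member pairs and -0.30 over all pairs. On that scale 10 of 20 member pairs lay below and 2 above, against 37.3% and 12.9% of all pairs. Scaled to library totals, the medians were -1.22 and -1.12. There 19 of 20 member pairs lay below and 0 above, against 85.3% and 1.54% of all pairs. All pairs shifted with the members, by -1.15 from the centred to the library-total scale. The differences below are therefore relative to the other shared peaks and are not absolute changes in binding.

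**Figure D3:**
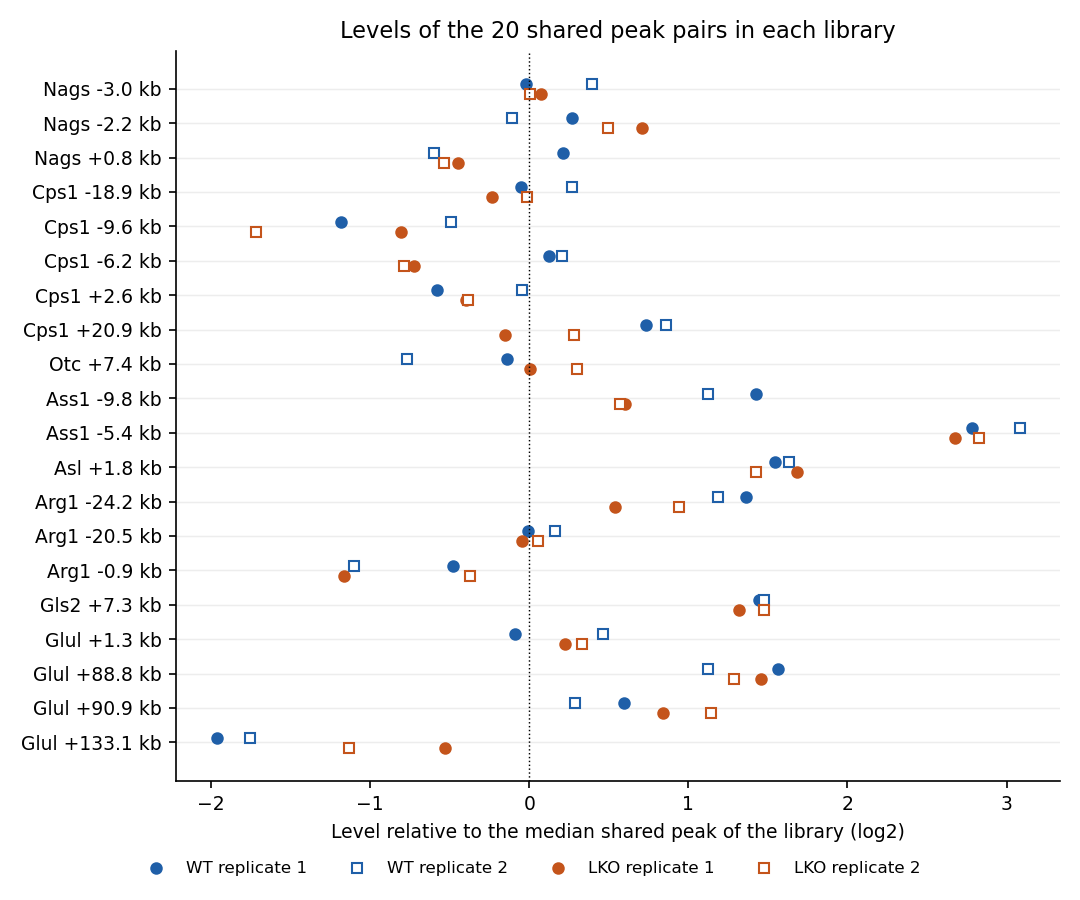
Level of each of the 20 shared peak pairs in every ChIP library, in log2 units relative to the median shared peak of that library. Blue symbols are WT and orange symbols LKO, with circles for replicate 1 and squares for replicate 2. The Ass1 -5.4 kb pair is the highest in all 4 libraries.

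Nags makes N-acetylglutamate, the obligate activator of CPS1. Its 3 shared peaks lay at -3.0, -2.2 and +0.8 kb, the last in intron 1, and its WT-only peak at -15.4 kb. The strongest by WT level, at -3.0 kb (chr11:102142387-102142597), holds the IR1-like site and had levels of -0.023 and 0.40 in WT (0.19 ± 0.30, SD, n = 2) and 0.070 and 0.0055 in LKO (0.038 ± 0.046). The genotypes overlapped there. At -2.2 kb, levels were 0.27 and -0.11 in WT (0.077 ± 0.27) and 0.71 and 0.49 in LKO (0.60 ± 0.15), so that both LKO libraries were higher, by 0.52 with a pooled SD of 0.22. Near the start site, at +0.8 kb, levels were 0.21 and -0.60 in WT (-0.19 ± 0.57) and -0.45 and -0.53 in LKO (-0.49 ± 0.062). The WT replicates lay on either side of the LKO values.

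Cps1 encodes carbamoyl phosphate synthetase 1, the rate-limiting enzyme of the cycle. All 5 of its shared pairs had a lower mean level in LKO, with differences of -0.92 to -0.076 and a median of -0.43, and 2 of them separated the genotypes. The common direction depended on single libraries, since the -9.6 kb pair was at 0.029 without LKO replicate 2 and the +2.6 kb pair at 0.19 without WT replicate 2. Its strongest peak, over exon 4 (chr1:67143841-67144051, +20.9 kb), had levels of 0.73 and 0.86 in WT (0.79 ± 0.089) and -0.15 and 0.28 in LKO (0.065 ± 0.31). Both LKO libraries were lower there, with a difference of -0.73 and a pooled SD of 0.23. At -6.2 kb, the levels were 0.13 and 0.20 in WT (0.17 ± 0.055) and -0.73 and -0.79 in LKO (-0.76 ± 0.046). This difference of -0.92 was the largest decrease among the member pairs, and the replicates of each genotype were close to one another. Input at this pair was at log2 1.81 in WT, percentile 92.8 of its list, and -0.14 in LKO, percentile 23.8. These were an estimated 2.53 and 0.37 tags, and the part of input in the difference was not tested.

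The other Cps1 pairs, at -18.9, -9.6 and +2.6 kb, overlapped between genotypes. In the Cps1 -9.6 kb pair the libraries ran from -1.18 to -0.49 in WT and from -1.72 to -0.81 in LKO, and the LKO peak was among the weakest of its list, at percentile 2.05. The WT-only promoter peak had log2 values of 3.52 and 4.84 (4.18 ± 0.93, n = 2) and stood at percentile 33.4. The 5 pairs share a gene and the same 4 libraries and are not independent. Over those libraries, the 3 genes whose strongest shared peak was most like that of Cps1 among 5916 genes were Gm13205, Gadd45g and Pax2, at Euclidean distances of 0.112, 0.163 and 0.164 in log2 units.

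Otc, the X-linked ornithine transcarbamylase gene, had 1 shared pair in intron 1 (chrX:10259643-10259853, +7.4 kb) and a WT-only peak at -12.7 kb. The shared peak had levels of -0.14 and -0.77 in WT (-0.45 ± 0.45) and 0.0070 and 0.30 in LKO (0.15 ± 0.21). Both LKO libraries were higher than both WT libraries, by 0.61 with a pooled SD of 0.35. The input of that peak was at log2 2.45 in LKO, percentile 92.4 of its list, and -0.39 in WT, percentile 49.1. These were an estimated 2.24 and 0.55 tags, and the part of input in the difference was not tested. In WT replicate 2 the peak was estimated at 8.15 tags.

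Ass1 encodes argininosuccinate synthase, which joins citrulline to aspartate. Its peak at -5.4 kb was the strongest of all member peaks in both lists, at percentile 99.5 in WT and 98.6 in LKO. Levels were 2.78 and 3.08 in WT (2.93 ± 0.21) and 2.68 and 2.83 in LKO (2.75 ± 0.10). The libraries of the genotypes overlapped, with a difference of -0.18 and a pooled SD of 0.17, which was -0.029 without WT replicate 2 and -0.33 without WT replicate 1. Input at this peak was at log2 0.11 in WT and 0.41 in LKO, at percentiles 69.9 and 71.3.

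A second Ass1 pair, at -9.8 kb and over the end of the neighbouring gene Hmcn2, had levels of 1.43 and 1.12 in WT (1.27 ± 0.22) and 0.60 and 0.57 in LKO (0.59 ± 0.025). Both LKO libraries were lower there, with a difference of -0.69 and a pooled SD of 0.15. The WT-only promoter peak, whose sequence is shown above, had log2 values of 4.13 and 4.36 (4.24 ± 0.16) and stood at percentile 36.3. In WT replicate 2 it was estimated at 6.13 tags.

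Asl encodes argininosuccinate lyase, which releases arginine. Its single peak, in intron 2 (chr5:130022435-130022645, +1.8 kb), holds an IR1-like site and had levels of 1.54 and 1.63 in WT (1.59 ± 0.066) and 1.69 and 1.43 in LKO (1.56 ± 0.18). The genotypes overlapped, with a difference of -0.032 and a pooled SD of 0.14. This was also the one member peak whose input passed the 95th percentile of its list, in both genotypes. That input was an estimated 2.61 tags in WT and 2.32 in LKO.

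Arg1 encodes arginase 1, which cleaves arginine to urea and ornithine. Its WT peaks formed an upstream group at -24.2, -22.1, -21.1 and -20.5 kb and a promoter pair at -0.9 kb and 70 bp. The strongest, at -24.2 kb (chr10:24951597-24951807), had levels of 1.36 and 1.19 in WT (1.27 ± 0.12) and 0.54 and 0.94 in LKO (0.74 ± 0.28). Both LKO libraries were lower, with a difference of -0.53 and a pooled SD of 0.22. Input there was at percentile 94.8 in WT and 61.3 in LKO, an estimated 2.59 and 0.43 tags. At -20.5 kb the genotypes overlapped, with a difference of -0.069.

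Near the start site, the Arg1 -0.9 kb pair had levels of -0.48 and -1.10 in WT (-0.79 ± 0.44) and -1.17 and -0.37 in LKO (-0.77 ± 0.56), so the spread within each genotype exceeded the difference of 0.022. The WT-only peak at the start site had log2 values of 3.56 and 3.82 (3.69 ± 0.19), the lowest of the WT-only peaks. The 3 genes whose strongest shared peak was most like that of Arg1 were Dhrs3, Rarg and Nr3c2, at distances of 0.123, 0.174 and 0.215.

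Gls2 encodes the liver-type glutaminase, which releases ammonia from glutamine beside CPS1 in mitochondria. Its shared peak in intron 7 (chr10:128201860-128202070) had levels of 1.44 and 1.48 in WT (1.46 ± 0.025) and 1.32 and 1.48 in LKO (1.40 ± 0.11). The difference of -0.064 was within the pooled SD of 0.081, and the peak was in the strongest decile of both lists. The LKO-only promoter peak had log2 values of 3.43 and 4.09 (3.76 ± 0.47) and was estimated at 13.5 and 22.8 tags.

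Glul encodes glutamine synthetase. All 4 of its shared pairs had a higher mean level in LKO, with differences of 0.029 to 1.03 and a median of 0.32, and 2 of them separated the genotypes. Here too the common direction depended on single libraries, and also on the scale. The +1.3 kb pair was at -0.19 without WT replicate 1, and the +88.8 kb pair at -0.19 without WT replicate 2 and -0.056 without LKO replicate 1. Centred on the mean of all shared pairs, the +88.8 kb pair was at -0.039. On the deposited scale it was at -0.30 and the +1.3 kb pair at -0.24. Its centred difference of 0.029 was near the median of all pairs, 0.026. The strongest, at +88.8 kb (chr1:153988577-153988787), had levels of 1.56 and 1.12 in WT (1.34 ± 0.31) and 1.46 and 1.29 in LKO (1.37 ± 0.12). The genotypes overlapped there, as they did at +1.3 kb in intron 1. At +90.9 kb, levels were 0.60 and 0.29 in WT (0.44 ± 0.22) and 0.84 and 1.14 in LKO (0.99 ± 0.21), and both LKO libraries were higher.

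The largest increase among the member pairs was at Glul +133.1 kb, with levels of -1.97 and -1.76 in WT (-1.86 ± 0.15) and -0.53 and -1.14 in LKO (-0.83 ± 0.43). Both LKO libraries were higher, but the peak was weak. It stood at percentile 7.01 in WT with an estimated 4.1 tags in WT replicate 2, and the centres of the WT and LKO peaks were 150 bp apart. Peaks this far from a gene were assigned to Glul only because its start site was the nearest, and the +133.1 and +134.4 kb peaks lie in the noncoding gene LOC108167736.

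**Figure D4:**
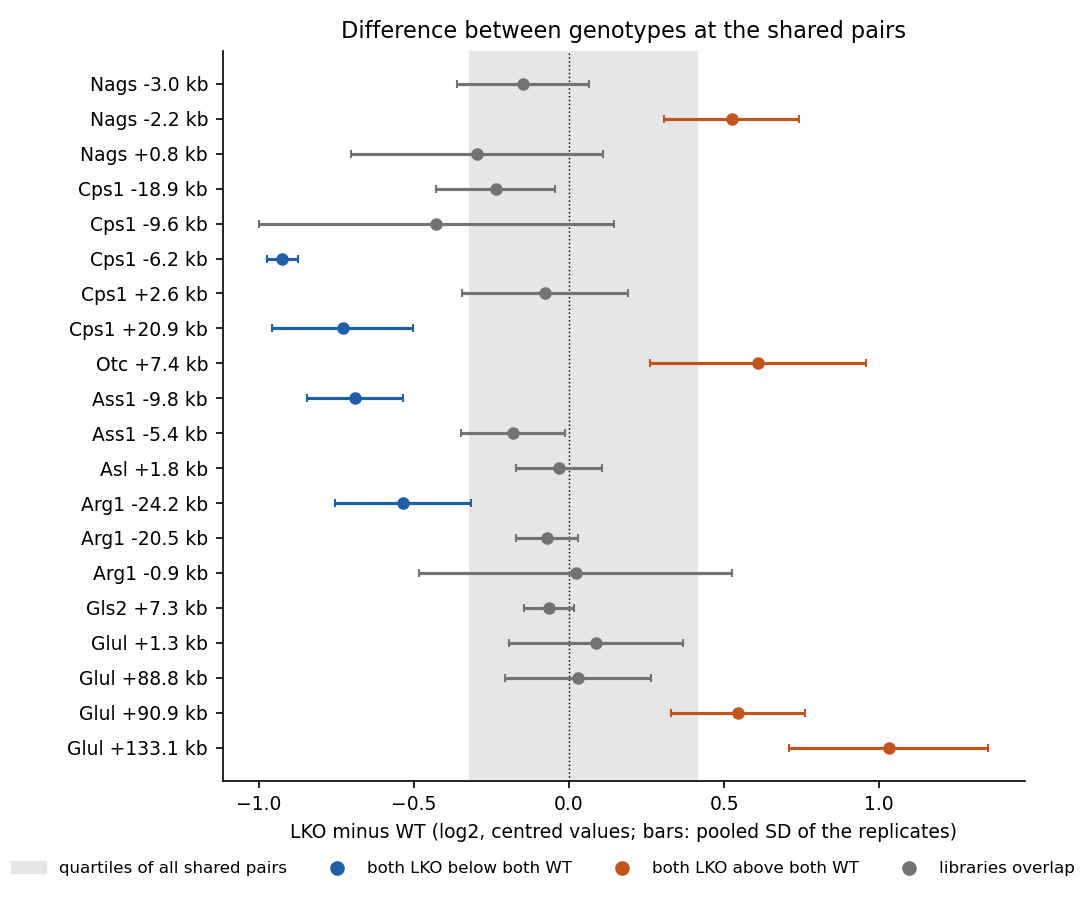
LKO minus WT difference of the centred log2 level at the 20 shared pairs, with bars of 1 pooled SD of the replicates (2 libraries per genotype). Colours mark pairs in which both LKO libraries lay below (blue) or above (orange) both WT libraries, and the grey band spans the quartiles of all 9918 shared pairs, -0.32 to 0.41. On this scale all 5 Cps1 pairs lie below 0 and all 4 Glul pairs above it, and the median of all pairs is 0.026.

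In the plot of differences, the members ran in both directions. The pairs with lower LKO libraries were those of Cps1 (-6.2 and +20.9 kb), Ass1 (-9.8 kb) and Arg1 (-24.2 kb). The pairs with higher LKO libraries were those of Otc, Nags (-2.2 kb) and Glul (+90.9 and +133.1 kb). Of the 6 member peaks in the strongest decile of the WT list, the strongest of Ass1, Asl, Gls2 and Glul overlapped between genotypes, while Ass1 -9.8 kb and Arg1 -24.2 kb had lower LKO libraries. The sign of these 8 non-overlapping differences could not turn when 1 library was left out, so only their size was informative. Leaving out WT replicate 2 lowered the difference of Otc from 0.61 to 0.29 and that of Nags (-2.2 kb) from 0.52 to 0.34. Without WT replicate 1 the Otc difference was 0.92, and without LKO replicate 1 that of Arg1 (-24.2 kb) was -0.33. On the library-total scale the 4 higher ones were negative.

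Glud1, the gene of glutamate dehydrogenase, received no peak under the nearest-start-site assignment, yet peaks lay in and near it. The search for such peaks was made after the member values were seen. Within Glud1 or 20 kb of it, 6 WT and 5 LKO peaks were assigned to the pseudogene Gm3219 or to Fam25c. One lay inside intron 5 of Glud1 in both lists (WT chr14:34333800-34334010, Gm3219), and it holds the exact IR1 shown above, with the site 47 bp from the WT peak centre. Only 46 of 20040 WT peaks (0.230%) and 36 of 12495 LKO peaks (0.288%) held an exact IR1 within 100 bp of the centre.

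The Glud1 intron 5 peak had levels of -0.37 and -0.091 in WT (-0.23 ± 0.19, n = 2) and -1.52 and -0.94 in LKO (-1.23 ± 0.41). Both LKO libraries were lower, with a difference of -1.0 and a pooled SD of 0.32. The peak stood at strength percentile 66.3 of the WT list and was among the weakest of the LKO list, at 2.65. Input at this peak was at log2 1.79 in WT, percentile 91.1 of its list, and -0.21 in LKO, percentile 2.91, and its part in the difference was not tested.

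The same search found a strong shared peak at the start site of Glul. It lay 102 bp upstream in WT (chr1:153899722-153899932) and was assigned to Mir8114, a microRNA gene that overlaps the start of Glul. Levels were 2.15 and 1.73 in WT (1.94 ± 0.29) and 1.99 and 1.98 in LKO (1.99 ± 0.0026), above every peak assigned to Glul, and the genotypes overlapped. It stood at percentile 96.9 in WT and 95.2 in LKO, and its LKO input was at percentile 95.9.

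Within Ass1, 2 WT and 3 LKO peaks were assigned to Gm5424. RefSeq places Gm5424, a transcribed pseudogene, on chromosome 10, whereas all of these peaks are on chromosome 2 inside the Ass1 gene. Counted with them, Ass1 had 6 WT peaks, 3 of them shared, and 5 LKO peaks, 3 of them shared. The LKO peaks at 946 and 4910 bp from the Ass1 start site were found in that list only and had IR1-like sites with 2 mismatches, at percentiles 13.97 and 2.65 of the list. The gene counts given above therefore depend on the assignment and understate the peaks in Ass1, Glul and Glud1.

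Other motifs were searched within 100 bp of the centres on both strands. DR1, the hexamer AGGTCA repeated in the same direction after 1 base, was present with at most 2 mismatches in 3 of 29 WT member peaks (10.3%, against 12.8% of all WT peaks) and in 3 of 21 LKO member peaks (14.3%, against 11.9%). The pattern TTCNNNGAA, of the kind bound by STAT factors and resembling the BCL6 motif, was present in 2 of 29 WT member peaks (6.90%, against 6.56%) and 4 of 21 LKO member peaks (19.0%, 95% Wilson interval 7.67 to 40.0%, against 6.39%). The closest DR1 match and the TTCNNNGAA sites are shown, with the site in capitals.
Arg1 -0.9 kb, DR1, chr10:24928454-24928478: ccaagtTGATCTCTGACCTccacgt
Cps1 -9.6 kb, TTCNNNGAA, chr1:67113424-67113444: aaagatTTCATCGAAtacagg
Nags -2.2 kb, TTCNNNGAA, chr11:102143233-102143253: gacagtTTCCAGGAAagggtc
Gls2 -0.3 kb, TTCNNNGAA, chr10:128194252-128194272: gcgcgtTTCCACGAActccga
Glul +132.9 kb, TTCNNNGAA, chr1:154032765-154032785: tcaggaTTCTGGGAAgttgat
The Arg1 site is a DR1 on the minus strand with 1 mismatch. The Cps1 and Nags sites lay in shared peaks and were within reach of the centre in both lists, whereas the Gls2 site lay in the LKO-only promoter peak. The Glul site belonged to the LKO peak of the +133.1 kb pair, which is offset from the WT peak. The LKO peaks with TTCNNNGAA at Cps1, Gls2 and Glul were weak, at strength percentiles 2.05, 3.79 and 20.1 of their list. That of Nags was at 77.2. RefSeq promoter sequences (300 bases around a start site) were at hand for Otc, Ass1, Nags, Glul and Glud1, and none of the 5 held IR1 with at most 2 mismatches, as 1.14% of 32851 promoters did.

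Genes around the cycle were examined from 2 lists chosen with earlier results of these data known. Of 15 genes of amino acid and ammonia transport and linked enzymes, 10 had WT peaks and 9 had LKO peaks. They held 45 WT peaks, 51.1% of them shared, against 49.5% of all WT peaks, and 26 LKO peaks, 88.5% shared, against 79.4% of all LKO peaks. Slc25a15, the mitochondrial ornithine carrier, had 3 WT and 1 LKO peaks, and its single pair was 0.81 higher in LKO with no overlap of the libraries. Slc25a13, the aspartate-glutamate carrier citrin, had 10 WT and 4 LKO peaks, with a median difference of -0.21 over its 4 pairs. Both LKO libraries were lower in 1 of these pairs and higher in 1. Car5a, the mitochondrial carbonic anhydrase that supplies bicarbonate to CPS1, had 4 and 2 peaks and a median difference of -0.42 over 2 pairs, of which 1 had both LKO libraries lower.

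Of 13 genes of transamination and amino acid breakdown, 12 had WT peaks and 11 had LKO peaks. They held 44 WT peaks, 59.1% shared, and 28 LKO peaks, 92.9% shared. Over their 26 pairs, both LKO libraries lay below both WT libraries in 9 and above in 4. Over the 23 pairs of the transport list the counts were 7 and 9, and over all pairs 25.2% lay below and 29.8% above. Oat, ornithine aminotransferase, of the transport list, had both of its pairs higher in LKO. The median differences of the 2 lists were -0.0046 for breakdown and -0.15 for transport, beside -0.073 for the 9 genes and 0.026 for all pairs.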

How the data were processed

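FXR ChIP-seq of mouse liver was analysed from 2 peak tables, 1 per genotype, covering 4 ChIP and 2 input libraries. Per the labels and methods, the authors crosslinked chromatin with DSG and formaldehyde, immunoprecipitated FXR and sequenced from 1 end. Bowtie placed the reads on mm10, keeping those with a unique position. HOMER made tag directories with at most 1 tag per position. The submitters' processing notes name Bowtie 1.2 and HOMER 4.10. Per the file headers, each genotype's ChIP libraries were pooled for peak calling, with the input as background.

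The deposited value of each library is a log2 tag level, normalised within its own table by the authors, and not a count. The deposited peak score is a signal given by the peak caller, and the deposited distance score is the signed distance in bp to the nearest start site. The columns of fold change and p-values against input, which hold the authors' own comparison, were not used. The depth per library was read from the file headers.

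Peaks whose gene column named a member were kept. Lists were compared by an overlap of at least 1 bp. Tags were estimated from the log2 values and library totals. Levels were centred on the median of the 9918 shared peaks in each library, and differences were given with the pooled SD. No test of genotypes was run. Motifs were searched in GRCm38.p6, whose chromosomes contained every peak. RefSeq gave gene positions. Estimates assume that the log2 values are relative to the mean library total of a table.

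The members and all gene lists were chosen with earlier results of these data known. Named with full values were the strongest shared pair of each gene, peaks within 1 kb of a start site, the 3 strongest peaks of 1 list, and the pairs whose genotypes did not overlap. The last were named after their values were seen. Groups followed the labels. Alternatives varied the overlap rule, the peak filter, the centring, the motif limit and the replicates. Scripts ran in Python 3.11.15 with pandas 2.3.3, numpy 2.4.6, pysam 0.24.0, scipy 1.17.1 and matplotlib 3.10.9. The overlap and motif code was tested on simulated data.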

Additional observations from a re-analysis of the deposited data

How the results depend on the processing

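No paired analysis was possible because the comparison of genotypes comes from no test, and no source used here states what, if anything, equal replicate numbers of WT and LKO share. Of 237 values recomputed under the alternatives, 157 stayed within the spread or interval of the reported value or, for counts, within a fixed ratio of it. Among the 179 recomputed differences 28 changed sign, 4 of them at pairs whose reported difference exceeded the pooled SD. Leaving out 1 library turned the sign at 10 of 20 pairs. At the 8 pairs whose genotypes did not overlap it could not do so, because non-overlap fixes the sign. Their unchanged signs are therefore no evidence of stability.

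Scaling mattered most. The median difference of -0.073 over member pairs became -0.40 on the deposited scale, -0.55 when centred on all peaks of each list and -1.22 on the library-total scale, and that of the strongest pairs went from -0.11 to -0.44, -0.58 and -1.25. On the library-total scale the sign turned for Otc +7.4 kb (-0.54), Nags -2.2 kb (-0.62), Glul +90.9 kb (-0.60) and Glul +133.1 kb (-0.12). Pairs with both LKO libraries higher numbered 4 when centred, 2 on the deposited scale, 1 when centred on all peaks and 0 on the library-total scale. Pairs with both lower numbered 4, 10, 15 and 19, and 7 when centred on the mean. Over all pairs, in the same order, the shares higher were 29.8%, 12.9%, 9.43% and 1.54%. The shares lower were 25.2%, 37.3%, 58.3% and 85.3%, and 29.6% when centred on the mean. These shifts follow from the scales, which move every pair alike. Leaving out 1 library in turn gave medians of -0.17 to -0.037 for all member pairs and -0.21 to -0.037 for the strongest. It gave 5 to 7 pairs above and 6 to 12 below. Without WT replicate 1 the count below was 12, without LKO replicate 2 it was 9, and without WT replicate 2 the count above was 7. With 1 library in a genotype, non-overlap is easier to reach, and among all pairs 35.3 to 38.6% then lay below and 40.2 to 42.0% above.

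The overlap of WT member peaks was 85.0% for peaks of at least median strength (75.5% of all such peaks), 86.4% with lists of the same length (68.3%) and 88.2% for peaks estimated at 10 tags or more in each replicate (75.6%). That last alternative, chosen after seeing the data, left 17 WT member peaks. The overlap of LKO member peaks was 100% (14 of 14) at median strength or above (92.3%). IR1 shares were 0% in both lists with at most 1 mismatch and with none. The counting of non-overlapping pairs under each alternative was also chosen after seeing the data. Depth limits WT replicate 2 most, in which the median member peak held an estimated 15.5 tags.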

Other observations

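Further peaks near the members were assigned to neighbouring genes, and were looked at after the member values were seen. Within 20 kb of Asl, introns of the neighbouring gene Crcp held 4 WT and 3 LKO peaks. The strongest, about 20 kb from the Asl start site, had levels of 1.01 and 1.08 in WT (1.04 ± 0.051, SD, n = 2) and 0.87 and 0.74 in LKO (0.80 ± 0.097), so that both LKO libraries were lower. All 3 shared Crcp pairs showed that order. Downstream of Glud1, the Fam25c peak at chr14:34357833-34358043 had an IR1-like site with 2 mismatches and levels of 1.46 and 1.79 in WT (1.63 ± 0.24) and 1.76 and 1.55 in LKO (1.65 ± 0.15), and the genotypes overlapped. Its LKO input was at percentile 98.2, against 67.7 in WT. Near Nags, the pair assigned to Tmem101 had both LKO libraries higher, with a difference of 0.61 and a pooled SD of 0.31. Of the 5 shared pairs in or near Glud1, 4 had both centred LKO libraries below both WT libraries, an order seen in 25.2% of all shared pairs. The 5 pairs share a region and the same libraries and are not independent, and only the intron 5 pair lies inside the gene.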
